A study of Macaca nemestrina with 15 samples.

Results

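The genes described here are the DNA repair genes expressed in peripheral blood mononuclear cells (PBMCs) of pig-tailed macaques given islatravir (ISL). They were chosen by name, 44 symbols in all, and sorted by repair pathway. Of these, 42 were measured, and all 42 passed the filter on low counts that left 12880 of the 28865 listed features. *RAD50* and *TREX1* were not analysed here. RNA from PBMCs of 5 *Macaca nemestrina* was sequenced before ISL, at week 12 of weekly oral dosing at 30 mg/kg, and at week 18, after dosing had stopped. The pre-treatment libraries (n = 5) had received 0 mg/kg, and the week 12 (n = 5) and week 18 (n = 5) libraries came from the same animals, named Z15228, Z13076, Z15339, Z15303 and Z15408. No untreated animals were followed in parallel, so treatment and elapsed time cannot be told apart. PBMCs are a mixture of lymphocytes and monocytes, and in such bulk samples fewer cells of a type and less RNA per cell cannot be told apart.

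ISL is an analog of deoxyadenosine that cells convert to a triphosphate, which the reverse transcriptase of HIV builds into DNA and then cannot readily extend. Cells guard their own DNA with pathways that divide the work by lesion: excision pathways replace a damaged base or a short stretch of one strand, mismatch repair corrects copying errors, recombination and end joining rejoin broken chromosomes, and checkpoint kinases pause the cycle meanwhile. End-cleaning enzymes trim blocked DNA ends, among them 3′ ends that carry a chain-terminating nucleoside, so that polymerases and ligases can act on them. Most blood lymphocytes are at rest and use excision repair and end joining, while recombination genes are expressed mainly in dividing cells.

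Between 5610597 and 10379572 reads per library fell on genes (median 8871860), and TMM scaling factors, which correct library sizes for composition, lay between 0.939 and 1.11. T-cell markers (10 of 10 with counts) and monocyte markers (9 of 10) were detected, and no marker of any list was at 0 in all libraries. The dates in the library names put the second library 56 to 57 days and the third 84 days after the first, which is shorter than the labelled weeks, and what the dates mark is not stated. Z15339, Z15303 and Z15408 shared these dates, and Z15228 and Z13076 each had dates of their own. The paper's methods and a figure legend also differ on how many weeks after dosing the last sample was taken, and the labelled weeks are used here. Libraries of one animal deviated together from their time-point means (mean correlation 0.551 over 15 pairs, against −0.137 over 60 pairs of different animals and time points). Each comparison was therefore also fitted with the animal as a replicate block. Levels are given as CPM, the counts of a gene scaled to a common library size after TMM, and fold changes are on the log2 scale from edgeR's fit on time point.

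No DNA repair gene passed the test of a difference between time points. At an adjusted p under 0.05 by edgeR's quasi-likelihood test, 0 of 42 were called in each of the 3 comparisons, where 0% of all tested features were called as well. With the replicate block 0 of 42 were called too, against 0.00776% of all features at week 12 and at week 18 and 0% between these weeks, and neither DESeq2, with or without the block, nor limma-voom called one. DESeq2 with the block called 27, 51 and 8 features among all genes in the 3 comparisons, none of them a repair gene. At an unadjusted p under 0.05 without the block, 0 of 42 were called at week 12 (background 1.61%), at week 18 (background 1.69%) and between them (background 0.505%).

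The estimates lay close to 0. The median log2 fold change of the 42 genes was 0.01 at week 12 vs. pre-treatment, −0.05 at week 18 vs. pre-treatment and −0.07 at week 18 vs. week 12, against 0.00 for all features in each. Values below 0 were found for 20 of 42 genes at week 12 (background 49.0%), for 27 at week 18 (background 49.8%, and 33 genes when libraries were scaled by size alone) and for 25 between these weeks (background 51.1%). Single genes ranged from −0.51 to 0.28, from −0.49 to 0.29 and from −0.42 to 0.51, and the median standard error was 0.18. The 95% interval of the blocked fit lay wholly within a 1.5-fold change for 34 of 42 genes at week 12, 32 at week 18 and 33 between them. In the fit on time point, which gave the estimates above, the numbers were 30, 28 and 26. In each fit, the interval of the other genes reached past that bound on at least 1 side, so a change of over 1.5-fold lay within it.

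**Figure D1:**
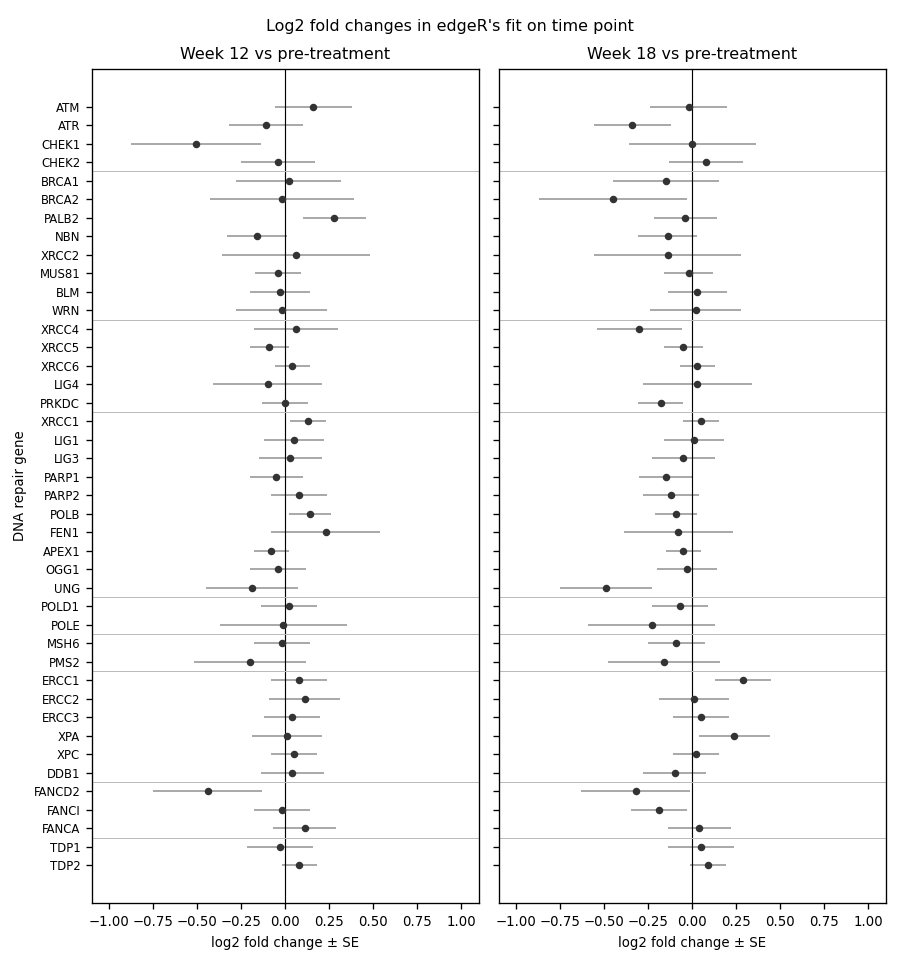
Log2 fold change ± SE (edgeR, n = 5 libraries per time point) of the 42 DNA repair genes at week 12 (left) and week 18 (right) vs. pre-treatment. Lines separate the repair roles, in the order of the text, and points lie between −0.51 and 0.29 around a vertical line at 0.

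The end-processing genes *TDP1*, *TDP2* and *APEX1* were examined first, since some end-processing enzymes act on chain-terminated 3′ ends. TDP1 removes blocking adducts from 3′ ends. *TDP1* measured 39.6, 33.2, 39.6, 28.1 and 38.5 CPM before treatment in Z15228, Z13076, Z15339, Z15303 and Z15408, then 44.0, 39.5, 32.7, 23.2 and 36.0 CPM at week 12 and 47.1, 38.3, 29.2, 25.7 and 44.3 CPM at week 18. The 3 time points overlapped throughout, with Z15303 lowest at each of them. Its log2 fold change was −0.03 (SE 0.19, adjusted p = 1 by edgeR) at week 12, 0.05 (SE 0.19, adjusted p = 1) at week 18 and 0.07 (SE 0.19, adjusted p = 1) between these weeks.

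*TDP2*, whose product frees 5′ ends from trapped topoisomerase, measured 47.2, 44.7, 48.1, 43.1 and 42.6 CPM before treatment, 49.9, 57.1, 44.0, 45.6 and 41.8 CPM at week 12, and 54.1, 47.6, 46.3, 45.6 and 46.4 CPM at week 18, with the animals in the same order. The groups overlapped, and Z15228 stood above the other 4 animals at week 18. The log2 fold change was 0.08 (SE 0.10) at week 12, 0.09 (SE 0.10) at week 18 and 0.01 (SE 0.10) between them, each with an adjusted p of 1 by edgeR.

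APEX1 cuts the DNA backbone at sites that have lost their base and can also trim 3′ ends. *APEX1* measured 164, 146, 141, 163 and 130.0 CPM before treatment, 145, 136, 138, 151 and 137 CPM at week 12, and 163, 156, 129, 137 and 132 CPM at week 18. The groups overlapped, and no animal was lowest or highest at all 3 time points. The log2 fold change was −0.08 (SE 0.10), −0.05 (SE 0.10) and 0.02 (SE 0.10) in the 3 comparisons, each with an adjusted p of 1 by edgeR.

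Few genes moved the same way in every animal. At week 12, 0 of 42 were lower and 0 higher in 5 of 5 animals, against 3.45% and 2.23% of all features (5.68% in either direction). At week 18, 1 gene (2.38%), *UNG*, was lower in 5 of 5 and 0 were higher (background 3.49% and 3.04%, 6.53% in either direction). From week 12 to week 18, *UNG* and *PRKDC* were lower and *CHEK1* higher in 5 of 5, 3 genes in all (7.14%, background 2.87% lower, 2.99% higher and 5.86% in either direction). These shares are near or below the background, and the same 3 genes were found with DESeq2's size factors and with library size alone, which added *APEX1* (lower) and *POLB* (higher) at week 12.

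UNG cuts uracil out of DNA at the start of base excision repair. *UNG* measured 4.11, 6.77, 5.37, 3.66 and 4.79 CPM before treatment, 4.05, 5.06, 4.97, 3.69 and 3.91 CPM at week 12, and 3.37, 4.27, 4.14, 1.77 and 3.87 CPM at week 18. Every animal had its lowest value at week 18, but the groups overlapped, and the values rest on 10 to 60 counts per library. The log2 fold change at week 18 was −0.49 (SE 0.26, adjusted p = 1 by edgeR) and with the replicate block −0.50 (SE 0.22, unadjusted p = 0.0343, adjusted p = 0.825). Between weeks 12 and 18 it was −0.31 (SE 0.26, adjusted p = 1), and the change within an animal ranged from −0.97 in Z15303 to −0.01 in Z15408.

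PRKDC is the catalytic subunit of the kinase that holds broken ends together in end joining. *PRKDC* measured 66.0, 90.6, 101, 85.4 and 114 CPM before treatment, 106, 89.8, 87.3, 86.5 and 88.5 CPM at week 12, and 84.8, 81.3, 79.7, 73.2 and 85.2 CPM at week 18. All week 18 values lay below all week 12 values, while the pre-treatment values spanned both. The share of all features that separated in this way was not determined. The log2 fold change between weeks 12 and 18 was −0.18 (SE 0.13, adjusted p = 1 by edgeR). With the replicate block it was −0.18 (SE 0.12, unadjusted p = 0.155 by edgeR).

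CHEK1 is the kinase that relays stalled-fork signals to the cell cycle. *CHEK1* measured 3.80, 3.95, 4.78, 1.78 and 3.65 CPM before treatment, 2.49, 1.20, 4.53, 2.95 and 1.40 CPM at week 12, and 2.59, 3.66, 4.70, 3.01 and 3.87 CPM at week 18, on 10 to 42 counts per library. From week 12 to week 18 the log2 change was 1.44 in Z13076 and 1.32 in Z15408 but only 0.03 to 0.05 in the other 3 animals, so the direction shared by 5 of 5 animals rested on differences of a few counts in 3 of them. The log2 fold change was 0.51 (SE 0.37, adjusted p = 1 by edgeR), and it was 0.33 without Z13076 and 0.32 without Z15408.

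**Figure D2:**
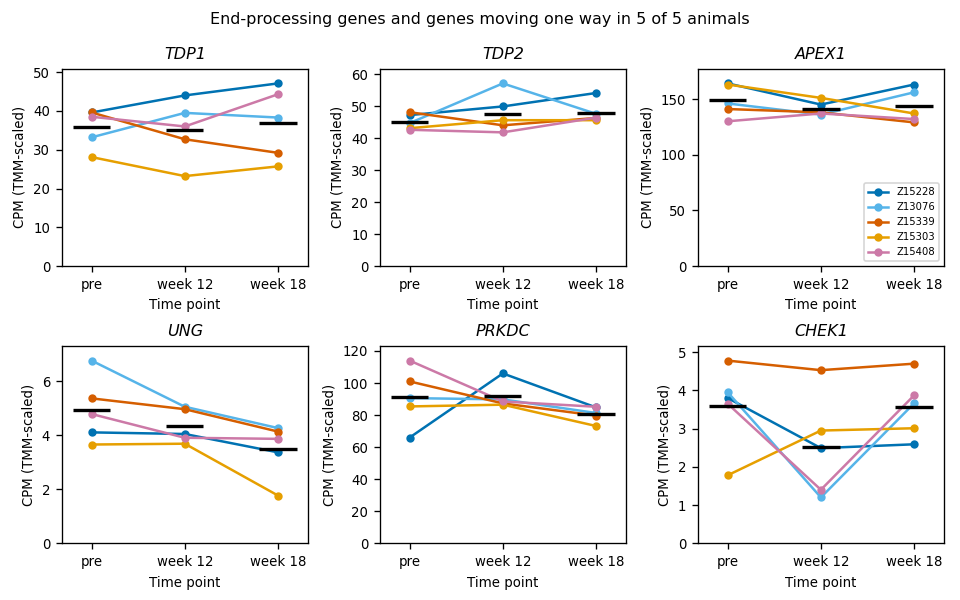
CPM of *TDP1*, *TDP2*, *APEX1*, *UNG*, *PRKDC* and *CHEK1* in each animal (coloured lines) at the 3 time points, with black bars at the means (n = 5). *UNG* ended lowest at week 18 in every animal, all *PRKDC* values at week 18 lay below those at week 12, and *CHEK1* dipped at week 12 in Z13076 and Z15408.

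With the replicate block, 3 of 42 genes (7.14%, background 5.85%) had an unadjusted p under 0.05 at week 18, and 0 of 42 did at week 12 (background 4.69%) or between these weeks (background 2.17%). They were *UNG*, *ATR* and *ERCC1*, the last of which belongs to a nuclease of nucleotide excision repair, and the latter pair was named after its values were seen. *ATR*, the kinase that senses exposed strands at stalled forks, measured 25.1 ± 5.83 CPM (SD, n = 5) in pre-treatment libraries against 19.8 ± 4.94 CPM at week 18, and was lower in 4 of 5 animals. *ERCC1* ranged from 80.8 to 117 CPM before treatment and from 95.8 to 140.5 CPM at week 18, with overlapping groups, and was higher in 4 of 5 animals. The adjusted p was 0.825 for each of the 3 genes.

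Among the other checkpoint kinases, *ATM*, which responds to broken ends, averaged 39.6 ± 11.1, 44.2 ± 9.30 and 39.0 ± 11.8 CPM across the 3 time points (SD, n = 5). Its animals did not move together, with a log2 change at week 18 of −1.08 in Z15408 and 0.40 in Z13076. *CHEK2*, the kinase downstream of ATM, stayed between 7.47 and 15.5 CPM in the 15 libraries. Reads of *CHEK2*, *PMS2* and *FANCD2* may be shared with near-identical gene copies such as those known in the human genome, so their levels are uncertain.

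The homologous recombination genes, which copy the intact sister strand, had role medians of −0.02 at week 12 and −0.09 at week 18 over 8 genes. *BRCA2*, which loads the recombinase, had 2 to 14 counts per library (0.355 to 1.66 CPM), too few to show any but very large changes. *BRCA1*, which steers breaks toward recombination, averaged 7.96 ± 3.07, 8.04 ± 3.18 and 7.19 ± 2.32 CPM at the 3 time points. *PALB2*, the bridge between BRCA1 and BRCA2, had the highest log2 estimate of all 42 genes at week 12 (0.28) and averaged 12.7 ± 2.79, 15.5 ± 2.37 and 12.4 ± 2.22 CPM. *XRCC2*, a paralog of the recombinase, ranged from 10.2 to 41.4 CPM. The break sensor subunit *NBN* (19.0 to 37.6 CPM), the junction nuclease *MUS81* (38.2 to 66.1 CPM) and the helicases *BLM* (13.7 to 24.2 CPM) and *WRN* (9.04 to 24.4 CPM) completed the role.

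The end-joining genes had medians of 0.00 and −0.05 over 5 genes. *XRCC6* and *XRCC5* encode the Ku ring that caps broken ends. *XRCC6* averaged 491 ± 17.3, 504 ± 38.1 and 500.4 ± 61.9 CPM, and *XRCC5* 279.7 ± 32.0, 262 ± 22.4 and 270.4 ± 33.8 CPM, on at least 2334 and 1217 counts in every library. The standard error was 0.10 for *XRCC6* and 0.11 for *XRCC5* on the log2 scale, the scale on which their estimates stayed between −0.09 and 0.05. The ligase *LIG4* (2.82 to 7.53 CPM) and its partner *XRCC4* (6.42 to 19.7 CPM) were measured on 17 to 66 and 54 to 113 counts.

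The base excision and single-strand break repair genes had medians of 0.04 at week 12 and −0.07 at week 18 over 10 genes. At week 18, 8 of the 10 had an estimate below 0 (background 49.8%). Of 13 other genes of this role, tested from the second list described below, 4 were below 0 at week 18 (median 0.07). *PARP1*, the sensor of nicks, ranged from 70.9 to 121 CPM over all libraries, and *PARP2*, its relative, averaged 20.9 ± 3.19, 22.1 ± 3.56 and 19.1 ± 3.55 CPM. The scaffold *XRCC1* averaged 55.2 ± 4.84, 60.5 ± 3.67 and 57.2 ± 6.74 CPM, and its ligase partner *LIG3* 17.7 ± 3.83, 18.1 ± 3.49 and 17.0 ± 2.98 CPM. The gap-filling polymerase *POLB* stayed between 17.5 and 26.0 CPM, the 8-oxoguanine glycosylase *OGG1* between 24.5 and 42.3 and the ligase *LIG1* between 30.6 and 66.2. The flap nuclease *FEN1* averaged 7.88 ± 3.24, 9.16 ± 3.72 and 7.43 ± 1.65 CPM. In none of these 8 genes did one time point separate from both others.

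The catalytic subunits of the replicative polymerases had levels that overlapped between time points. *POLD1* averaged 135 ± 28.1, 137 ± 26.1 and 129 ± 18.3 CPM, and *POLE* 9.06 ± 4.71, 8.93 ± 3.60 and 7.66 ± 2.90 CPM. The mismatch-binding *MSH6* ranged from 41.3 to 79.3 CPM, and the mismatch nuclease *PMS2* averaged 7.41 ± 2.59, 6.41 ± 2.42 and 6.58 ± 1.84 CPM. The SD between animals exceeded the difference between time-point means in *POLD1*, *POLE* and *PMS2*.

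In nucleotide excision repair, all 6 estimates were above 0 at week 12, from 0.01 to 0.11, and 5 of 6 at week 18, from −0.10 to 0.29, none of them called. Over all features, 49.0% and 49.8% of the estimates were below 0 at these weeks. Of 15 other genes of this pathway, tested from the second list described below, 8 were below 0 at each week (median −0.05 and 0.00). *XPC* and *DDB1*, which find the lesion, averaged 197 ± 36.6, 205 ± 25.9 and 200.1 ± 12.4 CPM and 227 ± 29.3, 234 ± 54.9 and 213 ± 42.7 CPM. The helicases *ERCC2* and *ERCC3*, which open the strands, ranged over 15.4 to 39.5 CPM and 70.7 to 117 CPM, and *XPA*, which verifies the damage, over 14.6 to 31.9 CPM. In the Fanconi anemia pathway, which unhooks cross-linked strands, *FANCD2* averaged 22.8 ± 9.92, 16.9 ± 4.37 and 18.4 ± 8.73 CPM, its partner *FANCI* 24.1 ± 3.01, 23.7 ± 4.67 and 21.0 ± 3.55 CPM, and the core subunit *FANCA* 11.8 ± 1.53, 12.7 ± 2.82 and 12.1 ± 2.33 CPM.

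Animals were compared with each other next. In the fit with the replicate block, a test of the animal terms that was added after the data had been seen called 11 of 42 repair genes (26.2%) at an adjusted p under 0.05, near the 30.9% of all features. The called genes were *BRCA1*, *FANCD2*, *XRCC2*, *TDP1*, *POLD1*, *ERCC3*, *POLE*, *FEN1*, *PMS2*, *DDB1* and *MSH6*. The span between the highest and the lowest animal mean had a median of 0.55 on the log2 CPM scale over the 42 genes and of 0.60 over all features.

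*BRCA1* set Z15228 apart, with 12.9, 13.6 and 11.0 CPM at the 3 time points against 5.19 to 8.12 CPM in the other 12 libraries, and these groups did not overlap (adjusted p = 0.00451 by edgeR). *FANCD2* set Z15303 apart, with 39.4, 23.1 and 33.3 CPM against 10.8 to 23.0 CPM elsewhere (adjusted p = 0.00519). *XRCC2* was highest in Z15339, at 33.7, 31.9 and 30.3 CPM, and lowest in Z15408, at 12.8, 10.2 and 12.3 CPM (adjusted p = 0.006), a 2.69-fold span of animal means. In Z13076 the same gene moved from 15.2 to 41.4 and back to 16.4 CPM, and in Z15228 from 35.4 to 18.0 and 23.3 CPM, so the level was not a fixed trait of every animal.

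Z15303 was the lowest animal for *TDP1*, *POLD1*, *ERCC3*, *POLE*, *FEN1*, *PMS2*, *DDB1* and *MSH6*, that is, for 8 of the 11 genes. It was also the lowest animal for many genes that were not called, such as *OGG1*, *PARP1* and *ATR*. The share over all features was not determined, so the count is not a result about the called genes. The *PMS2* values of Z15303 were 4.99, 2.58 and 3.37 CPM against 5.42 to 11.5 CPM in the other libraries. Its libraries at week 12 and week 18 were also the shallowest of the 15, at 5610597 and 5886482 counts, and the part of depth in this result was not tested. Without Z15303, 4 of 42 repair genes were called (*BRCA1*, *XRCC2*, *FEN1* and *ERCC3*; 9.52%, background 17.7%), and the adjusted p was 0.735 for *FANCD2* and 0.624 for *PMS2*. Without Z15339, 6 of 42 were called (14.3%, background 21.9%). *BRCA1* had an adjusted p of 0.62 without Z15228, and each of the 11 genes lost the call when at least 1 of the animals was left out.

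**Figure D3:**
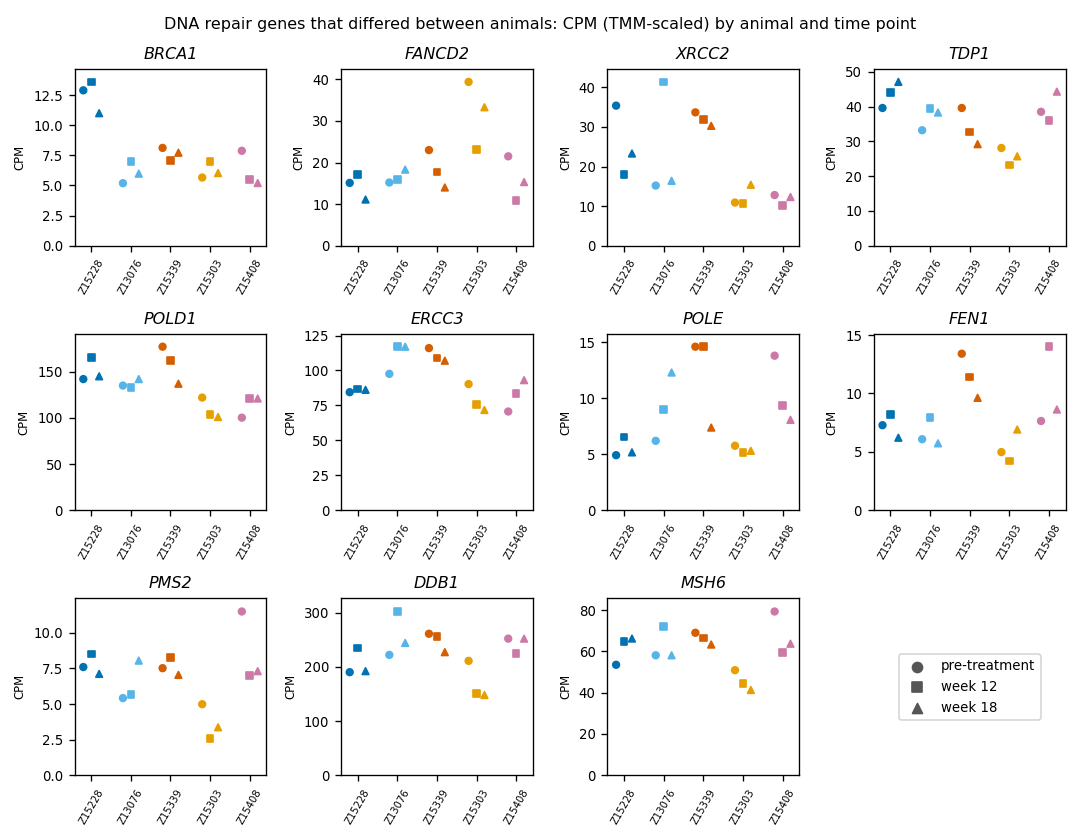
CPM of the 11 DNA repair genes that differed between animals, by animal (x axis) and time point (circle, square, triangle). *BRCA1* was highest in all 3 libraries of Z15228, *FANCD2* in those of Z15303, and *PMS2* was lowest in those of Z15303.

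Within animals, the repair genes moved in opposite directions in different animals. At week 12 the median log2 change over the 42 genes was 0.14 in Z15228 and 0.25 in Z13076, but −0.10 in Z15339, −0.16 in Z15303 and −0.27 in Z15408, while the median of all features stayed between −0.03 and 0.01. Of the 42 genes, 30 were higher than before treatment in Z15228 and 30 in Z13076, against 13 in Z15339, 15 in Z15303 and 12 in Z15408. At week 18 the medians were 0.03 and 0.08 in the first pair of animals and −0.13, −0.22 and −0.12 in the other 3. Both weeks were set against the same pre-treatment library of each animal, so they are not independent of each other. From week 12 to week 18, where that library does not enter, the medians were −0.07, −0.10, −0.11, −0.05 and 0.07 with the animals in the order above, and they did not fall into these sets. The sets are the animals whose libraries had dates of their own and those that shared dates, so date and animal cannot be told apart, and the split was noticed in the data.

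At week 12, 12 of 42 genes (28.6%) were higher in both animals with dates of their own and lower in all 3 animals with shared dates, against 8.93% of all features. They were *ATR*, *BLM*, *WRN*, *XRCC5*, *LIG4*, *LIG3*, *PARP1*, *MSH6*, *DDB1*, *FANCD2*, *FANCI* and *TDP1*, which span most of the repair roles. The reverse pattern was found for 1 gene, *ERCC1* (background 7.58%). At week 18, 7 of 42 (16.7%, background 8.49%) had the first pattern, namely *BLM*, *WRN*, *XRCC5*, *LIG4*, *LIG3*, *POLE* and *DDB1*, and 1, *XRCC1*, the reverse (background 7.78%). With library size alone, the first pattern was found for 15 of 42 genes at week 12 (background 13.9%) and 11 of 42 at week 18 (background 12.6%). Between weeks 12 and 18 each pattern was found for 1 gene (background 2.69% and 2.86%). The sets were noticed in the medians of these same genes, which tends to raise such counts. The shares at weeks 12 and 18 therefore describe the split and do not test it.

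*WRN*, a helicase of stalled forks, had the widest gap between the sets at week 12. It measured 9.55 and 10.5 CPM before treatment in Z15228 and Z13076, then 17.5 and 20.4 CPM at week 12 and 15.7 and 18.9 CPM at week 18. In Z15339, Z15303 and Z15408 it measured 18.5, 14.1 and 24.4 CPM before treatment, 16.1, 9.04 and 12.8 CPM at week 12, and 12.5, 12.4 and 18.4 CPM at week 18. The sets did not overlap before treatment, when the shared-date animals were the higher, nor at week 12, when they were the lower. The log2 change differed between the sets by 1.49 (SE 0.30, adjusted p = 0.0525 by edgeR's time by set term) at week 12 and by 1.17 (SE 0.30, adjusted p = 0.0984) at week 18, neither of which passed.

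*LIG4*, the ligase of end joining, went from 2.88 and 2.82 CPM to 4.15 and 5.42 CPM in the pair and from 4.78, 5.44 and 7.53 CPM to 3.09, 3.32 and 5.82 CPM in the other 3 at week 12, a difference of 1.30 (SE 0.43, adjusted p = 0.122). *ATR* went from 20.1 and 22.9 CPM to 26.4 and 30.4 CPM in the pair and from 25.4, 22.0 and 34.9 CPM to 21.3, 14.8 and 22.9 CPM in the other 3, a difference of 0.88 (SE 0.24, adjusted p = 0.0681). Over the 42 genes, 0 passed the adjusted threshold at either week (0.0155% and 0% of all features did). At an unadjusted p under 0.05, 13 of 42 (31.0%, background 18.5%) differed between the sets at week 12, 12 of them with the own-date animals higher (background 9.50%), and 6 of 42 (14.3%, background 16.5%) at week 18, 5 of them in that direction (background 8.56%).

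These shares rest on sets seen in the same genes, which move together, so they too are a description and not a test. The week 12 count depended on single animals. It was 8 of 42 (19.0%, background 20.3%) without Z15228, 7 of 42 (16.7%, background 11.2%) without Z13076 and 7 of 42 (16.7%, background 16.6%) without Z15408. Without Z15339 it was 11 of 42 (26.2%, background 15.5%), and without Z15303 12 of 42 (28.6%, background 16.7%). Scaling by library size alone moved the median change of all features by over 0.1, to 0.11 in Z15228 and −0.16 in Z15408 at week 12. Relative to all features, the median of the repair genes was 0.15, 0.24, −0.10, −0.14 and −0.23 in Z15228, Z13076, Z15339, Z15303 and Z15408, a difference that scaling a library cannot change.

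**Figure D4:**
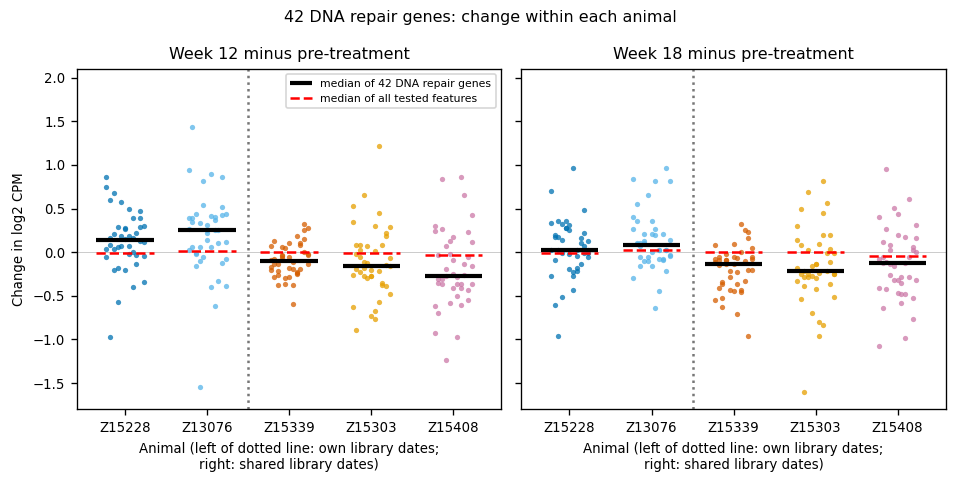
Log2 change of each of the 42 DNA repair genes (points) within each animal at week 12 and week 18, with the median of the 42 genes (black bars) and of all tested features (dashed red bars). At week 12 the black bars lie at 0.14 and 0.25 in the animals with library dates of their own and between −0.27 and −0.10 in those with shared dates.

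**Figure D5:**
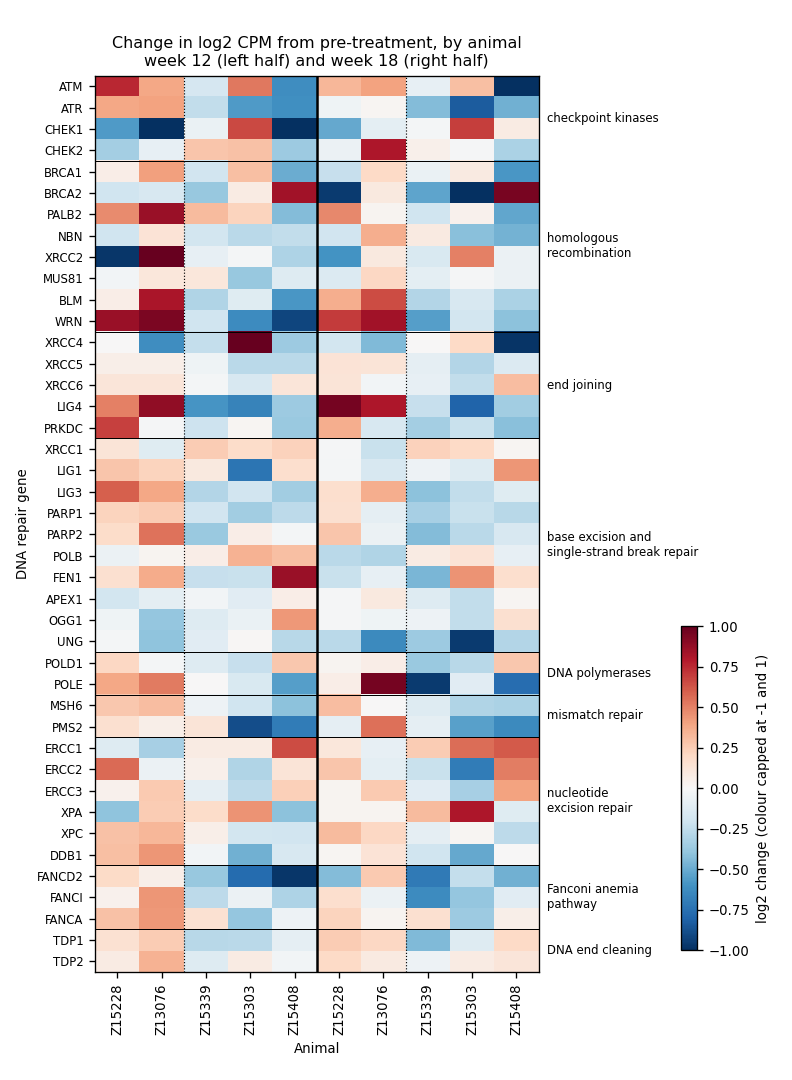
Log2 change from pre-treatment of the 42 DNA repair genes (ordered by role) in each animal at week 12 (left) and week 18 (right), with colour capped at −1 and 1. Dotted lines separate Z15228 and Z13076 from the 3 animals with shared dates, and *WRN* and *LIG4* are red in the pair and blue in the other 3 at each week.

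Marker genes of blood cell types also differed between libraries. Summed over 10 B-cell markers, of which 9 were tested, the level ranged from 269.9 to 1056 CPM before treatment, 159 to 549 CPM at week 12 and 199 to 469 CPM at week 18, and it was lower in 5 of 5 animals at each week than before. All 9 tested markers were lower (median log2 fold change −0.87 and −1.05), none of them past the adjusted threshold of the fit on time point. At an unadjusted p under 0.05, 4 and 5 of the 9 were called without the block and 9 and 8 with it (background 4.69% and 5.85% with the block). Monocyte markers (9 of 10 measured) went from 3776 to 3280.3 CPM and from 4871 to 3122 CPM at week 12 in Z15228 and Z13076, and from 2537 to 2602, from 4179 to 3879 and from 3963 to 4171 CPM in Z15339, Z15303 and Z15408. At week 18 the monocyte sums ranged from 2956 to 6253 CPM, against 2537 to 4871 CPM before treatment. They were lower than before in 1 of 5 animals. Between weeks 12 and 18, 1 of 9 monocyte and 9 of 10 NK and cytotoxic markers had an estimate below 0 (median 0.34 and −0.23, background 51.1%). With the block, 22.2% and 30.0% of them had an unadjusted p under 0.05 (background 2.17%). The part of these shifts in the repair gene values was not tested.

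Genes of dividing cells, with which many repair genes are co-expressed, were summed over 20 of 21 markers. They went from 548 to 619 CPM in Z15228 and from 519.7 to 539 CPM in Z13076 at week 12, and from 710.3 to 662, from 478 to 418 and from 424 to 565 CPM in the other 3 animals, and their part was not tested either. At week 18 they summed to 492 and 487 CPM in the first pair and to 596, 442 and 565 CPM in the other 3. These sums were lower than before treatment in 4 of 5 animals. They were also lower than at week 12 in 4 of 5, but in Z15408 both weeks rounded to 565 CPM. The log2 fold change was below 0 for 6 of 20 genes at week 12 (median 0.11, background 49.0%). It was below 0 for 14 at week 18 (median −0.08, background 49.8%) and for 19 between these weeks (median −0.20, background 51.1%). Of these 20 genes, 0 passed the adjusted threshold in any comparison by edgeR, and at an unadjusted p under 0.05 there were 0 without the block and 0, 0 and 1 with it. Targets of the DNA damage response through p53 (19 of 20 measured, *XPC* being on both lists) summed to 1154 to 1314 CPM before treatment, 1144 to 1296 CPM at week 12 and 1155 to 1319.5 CPM at week 18. Their median log2 fold change was 0.06, 0.01 and −0.03 in the 3 comparisons, with 0 past the adjusted threshold by edgeR. At an unadjusted p under 0.05 there were 0, 1 and 0 of the 19 without the block and 2 (10.5%, background 4.69%), 3 (15.8%, background 5.85%) and 0 (background 2.17%) with it.

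The repair machinery outside the chosen genes was read from a second list of 136 symbols, of which 121 were tested. These are the partner subunits, accessory factors, translesion polymerases and nucleotide-pool enzymes of the same pathways. In edgeR's fit on time point 0 of 121 passed the adjusted threshold in any comparison, and 0 did so at an unadjusted p under 0.05. The blocked fit gave 2 genes at this unadjusted threshold at week 12 (both higher; 1.65%, background 4.69%), 1 at week 18 (higher; 0.826%, background 5.85%) and 0 between these weeks (background 2.17%). The median log2 fold change was −0.01, −0.03 and 0.00, and by pathway it ranged from −0.13 in end joining to 0.12 in base excision repair at week 12.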

How the data were processed

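PBMC RNA of 5 macaques at 3 time points was sequenced from SMART-Seq v4 and Nextera XT libraries, which do not keep strand, so overlapping antisense genes cannot be told apart. Per the labels and methods, the authors aligned reads with STAR 2.7.9a to *M. nemestrina* (Ensembl release 95) and deposited raw read counts per gene, without normalization. Groups and animals were taken from the sample labels. Counts were fitted with edgeR 4.0.16 in R 4.3.3 (TMM, filterByExpr with a minimum count of 10, quasi-likelihood F test, Benjamini-Hochberg adjustment over all 12880 tested features, threshold 0.05) on all 15 libraries with time point as the only term. The SE of a log2 fold change was its size over the root of its F value, and log2 CPM used a prior count of 2. Alternatives were the animal as a replicate block, DESeq2 1.42.0, limma-voom (limma 3.58.1), size factors, library size alone, no filter, 2 time points only, and each animal left out. The tests of animals and of date sets were added after seeing the data. The tests were tried on simulated data with known changes as a check of the code, and no result here rests on that trial.

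Members and gene lists were chosen with earlier results of these data known. Fold change, SE and p are given for genes that moved one way in 5 of 5 animals and for *TDP1*, *TDP2* and *APEX1*; others named with a p were chosen after their values were seen. In the fit on time point, p-values rest on the spread between 5 animals and treat libraries of one animal as independent. With the replicate block, and in the tests of animals and date sets, they rest on the spread left after each animal's mean is removed. Gene levels are not corrected for length and were not compared between genes. Counting error is largest for genes of few counts, down to 2 counts per library for *BRCA2*.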

Additional observations from a re-analysis of the deposited data

Results flagged for a closer look

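In 11 of the 126 groups of 5 libraries (42 genes at 3 time points, 8.73%), the highest or lowest animal stood apart. The gap was 0.71 or more of the group's range, which about 1 in 20 groups of independent, normally distributed values would reach. The groups here share libraries and are not independent. The share over all features was not determined, so the 8.73% is not a result about repair genes. The value was the highest of its group for *BRCA1* at week 12 in Z15228 (13.6 CPM, the others 5.52 to 7.07), for *PRKDC* at week 12 in Z15228 (106 CPM, the others 86.5 to 89.8) and for *TDP2* at week 18 in Z15228 (54.1 CPM, the others 45.6 to 47.6). In Z13076 at week 12 it was the highest for *BLM* (24.2 CPM, the others 15.1 to 17.8) and *FANCI* (31.8 CPM, the others 20.5 to 23.6). In Z15303 it was the highest at week 12 for *XRCC4* (19.7 CPM, the others 7.84 to 10.2) and *XPA* (24.7 CPM, the others 15.6 to 17.8), and the lowest at week 18 for *PMS2* (3.37 CPM, the others 7.05 to 8.05). Before treatment *XRCC5* was highest in Z15408 (335 CPM, the others 254 to 271) and *PARP2* in Z15339 (26.4 CPM, the others 18.4 to 20.4). At week 18 *XRCC4* was lowest in Z15408 (6.42 CPM, the others 8.93 to 9.58).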

How the results depend on the processing

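No repair gene was called under any alternative run, and the replicate block changed no call among the 42 genes. Over all features the number called went from 0 to 1 with the replicate block, 1 with DESeq2 and 27 with DESeq2 and the block at week 12, to 1 with the block and 51 with DESeq2 and the block at week 18, and to 8 with DESeq2 and the block between these weeks; the cause was not tested. With each animal left out it was 0 to 6, 0 to 17 and 0 with the block (6 and 17 without Z13076, 3 at week 18 without Z15408). Repair genes below 0 numbered 13 to 27, 21 to 33 and 24 to 29 (13 to 26 at week 12 in the unblocked fit, 13 without Z15408), and their median at week 12 was −0.01 with library size alone. With library size alone, those with a date-set difference numbered 19 (45.2%, all features 21.3%) at week 12 and 13 (31.0%, all features 17.7%) at week 18. *CHEK1* between weeks ranged from 0.32 to 0.74. Leaving out each animal gave 7 to 12 at week 12 and 4 to 7 at week 18 (all features 1449 to 2609 and 1398 to 2093), and 4 to 15 genes and 2284 to 4291 features differing between animals, each lowest feature count being without Z13076 for date sets and without Z15303 for animals. Small values changed sign when animals were left out. *TDP1* ranged from −0.12 to 0.04 at week 12 (from −0.10 without the block; 0.02 without Z15339 and 0.01 without Z15303 with the block, 0.04 and 0.02 without it) and from −0.03 to 0.16 at week 18 (−0.01 without Z15228, and with the block −0.03, −0.02 and −0.03 without Z15228, Z13076 and Z15408). *APEX1* ranged from −0.09 to 0.00 at week 18 (0.00 without Z15303) and from −0.03 to 0.06 between weeks, with −0.02 without Z15228 and −0.03 without Z13076. *TDP2* between weeks was −0.02 to 0.09, with −0.02 without Z15228 or Z15408, −0.01 without Z15228 with the block and 0.00 without Z15339. None of these passed a test. With 5 animals and a median SE of 0.18, small changes and those of genes with few counts were not detectable.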
